A study of Mus musculus with 12 samples.

Results

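Growth of the mouse oocyte between postnatal day 7 (P7) and postnatal day 14 (P14) was followed in WT females, by comparing the 6 WT libraries of a series of 12. The libraries were taken by their labelled age and genotype, and 17715 of the 55450 genes in the table had enough counts to be tested. P14 WT oocytes came from secondary follicles of mice at 14 days, wild type for Tbpl2, and 604 oocytes were pooled into 3 libraries. P7 WT oocytes came from primary follicles of mice at 7 days, also wild type for Tbpl2, and 1150 oocytes were pooled into 3 libraries. No drug, transgene or Cre was named for either group, and the strain of these mice was not given in the labels. Tbpl2-/- oocytes of both ages, the other 6 libraries, entered the comparison of the ages through the gene filter, the scaling and the shared estimate of the spread. Oocytes were freed from the ovary with enzymes and picked by size, so a library averages over many cells of several follicles. Age, follicle stage and picked size changed together and cannot be told apart.

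Oocytes leave the resting pool as primary follicles form, and grow while halted in the first meiotic prophase. They then make and store the RNAs and proteins of the egg coat, of meiosis and of the early embryo, exchange signals and metabolites with granulosa cells through gap junctions, and gain the DNA methylation of maternal imprints. Transcription declines once the oocyte is fully grown, and the egg and early embryo live on the stored RNA.

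The 6 WT libraries held between 39371254 and 42249552 counts. Replicates within a group correlated at 0.981 to 0.991. The first principal component held 67.3% of the variance and split the ages, and P7 WT replicate 1 stood apart on it, at 34.74 against 71.7 and 73.39 for the other P7 WT libraries. Its correlation with the P14 WT libraries was 0.967 to 0.973, against 0.946 to 0.956 for the other P7 WT libraries. All 12 oocyte markers (Gdf9, Bmp15, Zp1, Zp2, Zp3, Ddx4, Dazl, Nobox, Figla, Kit, Nlrp5 and Padi6) had counts in all 6 libraries. Markers of granulosa cells were also counted, and their values are given with the gene groups.

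Promoters of 6 genes described below are shown first as examples. Each runs from 250 bases before the transcript start to 50 bases after it, 5′ to 3′ on the gene's strand. They are RefSeq sequences on GRCm38.p6. Capitals mark CACGTG, an E-box that basic helix-loop-helix factors can bind, in the first 4 genes. These genes encode the synaptonemal complex proteins Sycp1 and Sycp3, the germ cell transcription factor Sohlh1 and the egg coat protein Zp3, and all were lower in P14 WT. In Oog4 and Steap4, which were higher in P14 WT, capitals mark TATATA and TTTATA, which is TATAAA read on the other strand.
Sycp1: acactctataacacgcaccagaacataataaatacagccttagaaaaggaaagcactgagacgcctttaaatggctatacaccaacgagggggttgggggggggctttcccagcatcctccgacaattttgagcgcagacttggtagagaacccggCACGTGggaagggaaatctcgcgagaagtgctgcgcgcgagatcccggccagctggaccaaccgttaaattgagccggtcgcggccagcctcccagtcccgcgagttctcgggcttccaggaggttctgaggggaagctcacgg
Sycp3: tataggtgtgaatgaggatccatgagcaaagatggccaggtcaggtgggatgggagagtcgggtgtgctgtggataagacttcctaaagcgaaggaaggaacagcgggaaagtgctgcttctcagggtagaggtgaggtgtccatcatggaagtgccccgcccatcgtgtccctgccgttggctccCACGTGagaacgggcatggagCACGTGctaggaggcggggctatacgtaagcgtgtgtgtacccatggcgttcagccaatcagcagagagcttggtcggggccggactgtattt
Sohlh1: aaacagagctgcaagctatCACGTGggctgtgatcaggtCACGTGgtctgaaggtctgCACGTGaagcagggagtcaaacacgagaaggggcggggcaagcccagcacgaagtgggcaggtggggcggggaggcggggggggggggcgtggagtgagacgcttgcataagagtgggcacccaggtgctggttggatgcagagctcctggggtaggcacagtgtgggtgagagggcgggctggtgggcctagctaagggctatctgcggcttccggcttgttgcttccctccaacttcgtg
Zp3: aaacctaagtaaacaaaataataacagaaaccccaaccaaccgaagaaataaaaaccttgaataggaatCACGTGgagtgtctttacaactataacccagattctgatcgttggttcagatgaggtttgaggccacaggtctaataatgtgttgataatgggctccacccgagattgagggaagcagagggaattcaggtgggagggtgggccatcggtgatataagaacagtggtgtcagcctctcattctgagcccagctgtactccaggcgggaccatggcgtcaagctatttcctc
Oog4: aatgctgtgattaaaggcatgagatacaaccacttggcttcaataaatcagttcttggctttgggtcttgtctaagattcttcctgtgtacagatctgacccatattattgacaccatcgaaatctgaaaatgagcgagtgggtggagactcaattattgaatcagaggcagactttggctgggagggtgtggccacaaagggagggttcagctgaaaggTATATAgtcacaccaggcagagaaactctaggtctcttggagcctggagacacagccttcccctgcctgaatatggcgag
Steap4: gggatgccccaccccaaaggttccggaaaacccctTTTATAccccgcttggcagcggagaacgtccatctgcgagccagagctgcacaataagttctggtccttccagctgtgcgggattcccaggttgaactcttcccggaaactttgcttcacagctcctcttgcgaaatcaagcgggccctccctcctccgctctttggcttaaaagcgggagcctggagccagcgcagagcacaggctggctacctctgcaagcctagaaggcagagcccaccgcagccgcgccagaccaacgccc
These windows lie at chr3:102936051-102936350, minus strand (Sycp1), chr10:88459337-88459636, plus strand (Sycp3), chr2:25847199-25847498, minus strand (Sohlh1), chr5:135979855-135980154, plus strand (Zp3), chr4:143450275-143450574, minus strand (Oog4) and chr5:7960222-7960521, plus strand (Steap4). CACGTG began 94 bases before the start of Sycp1, 64 and 43 before that of Sycp3, 231, 211 and 192 before that of Sohlh1, and 181 before that of Zp3. TATATA began 30 bases before the start of Oog4, and TTTATA 215 bases before that of Steap4.

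These 6 promoters are examples and no sample of the calls. On either strand, CACGTG was found in 10.6% of 1619 promoters of genes lower in P14 WT by over 2-fold, in 7.35% of 1402 promoters of genes higher by over 2-fold, in 9.35% of 15706 promoters of tested genes and in 7.15% of all 32851 promoters. TATAAA was found in 9.08% of promoters of lower genes, 10.3% of promoters of higher genes, 8.28% of promoters of tested genes and 13.6% of all promoters. TATATA was found in 3.09%, 4.14%, 2.85% and 5.67% of the same 4 sets. On the gene's strand and 40 to 15 bases before the start, TATAAA was found in 1.98% of promoters of lower genes and 1.50% of promoters of higher genes, against 1.33% of promoters of tested genes. A gene can have several promoters here, and 12349 of 17708 tested symbols matched one.

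Between the ages, 1654 genes were higher in P14 WT by over 2-fold (9.34% of tested genes) and 2021 were lower (11.4%), at an adjusted p of at most 0.05 in edgeR's quasi-likelihood test. By adjusted p alone, 4749 genes were higher (26.8%) and 4140 lower (23.4%), so most changes were under 2-fold. Among the genes changed by over 2-fold, 392 were higher and 477 lower by over 4-fold, and 98 were higher and 145 lower by over 8-fold. The 3 P14 WT libraries lay outside the range of the 3 P7 WT libraries for 1617 of the 1654 higher genes and 1912 of the 2021 lower genes. These genes were called from the same libraries, so this separation follows from the selection and is no separate evidence for the calls. Without P7 WT replicate 1, the library that stood apart, 2150 genes were higher and 2358 lower by over 2-fold. Scaling by library size alone moved the median of all genes by −0.15 on the log2 scale, and the counts to 1215 higher and 2562 lower by over 2-fold, or 3769 higher and 5168 lower by adjusted p. Upper-quartile factors moved the median by −0.11. With the 6 WT libraries alone, 16157 genes were tested, of which 1303 were higher and 2029 lower by over 2-fold, and by adjusted p 3940 were higher and 4139 lower, so the excess of higher over lower genes was lost.

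**Figure D1:**
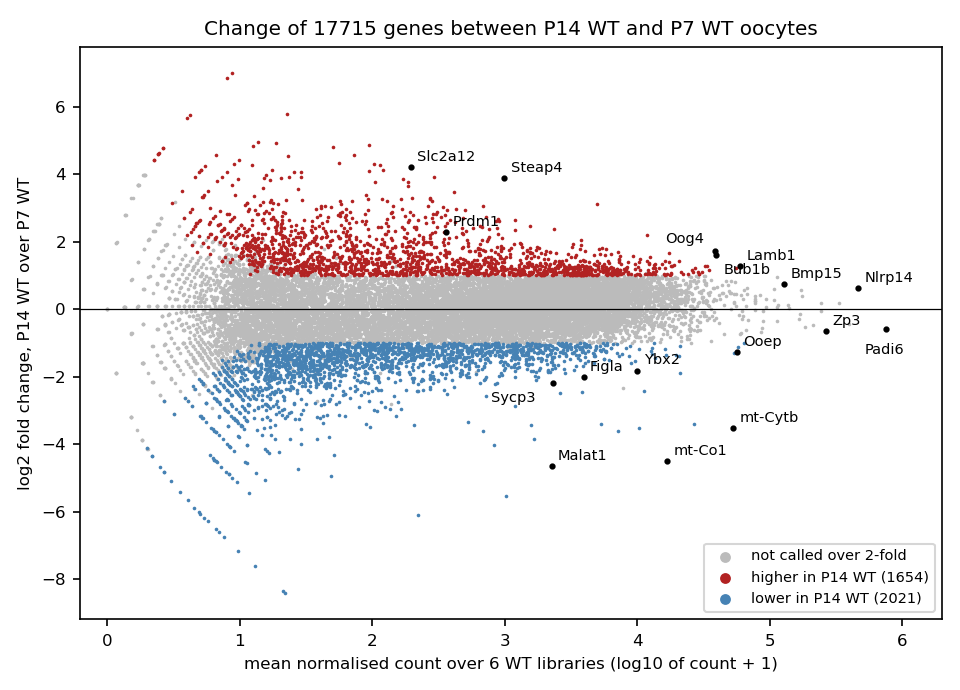
Log2 fold change of P14 WT over P7 WT for each of the 17715 tested genes (vertical axis) against the mean normalised count over the 6 WT libraries (log10 of count + 1, horizontal axis). Red points are the 1654 genes higher and blue points the 2021 genes lower in P14 WT by over 2-fold, grey points are the rest, and black points are genes described in the text: Padi6 and Nlrp14 stand at the right end with small folds of opposite sign, and mt-Co1 and Malat1 are among the lowest.

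Most genes seen at one age were seen at the other. A mean above 100 normalised counts (counts divided by the library's size factor) was found for 11274 genes in P14 WT and 11385 in P7 WT, and for 10838 at both ages. Higher genes had a median of 166 normalised counts over the 6 libraries and lower genes 76.5, both among genes changed by over 2-fold. Of the higher genes 1296 encoded proteins, and of the lower genes 1471.

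Among genes called over 2-fold above 100 normalised counts without overlap of the groups, leaving out predicted genes, clones and pseudogenes, Slc2a12, a glucose transporter gene, had the largest fold increase. It had 368, 348 and 395 normalised counts in P14 WT, against 30.1, 6.13 and 23.5 in P7 WT (log2 fold change 4.21 ± 0.45 (SE), adjusted p = 1.33e-05). Its exons overlap those of Tbpl1 on the opposite strand, and Tbpl1 went the other way, with 516, 767 and 788 normalised counts in P14 WT, against 1706, 1983 and 1974 in P7 WT (log2 fold change −1.45). Whether the counting used strand was not stated in the sources used here, so reads of the overlap could not be assigned.

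Steap4, a metalloreductase of the cell surface, had 2163, 1920 and 1509 normalised counts in P14 WT, against 175, 67.4 and 138 in P7 WT (log2 fold change 3.88 ± 0.35 (SE), adjusted p = 4.63e-06). Every P14 WT library held more than 8 times the count of every P7 WT library. Tmem132b, a membrane protein gene, had 372, 347 and 310.2 normalised counts in P14 WT, against 25.1, 28.6 and 28.6 in P7 WT (log2 fold change 3.64 ± 0.35 (SE), adjusted p = 3.46e-06), with little spread at either age. Other genes with large increases were the splicing regulator Rbm20 (3.46), Tmem51 (3.29, 10.6% shared), the death receptor gene Tnfrsf21 (3.25), the matrix metalloproteinase gene Mmp24 (3.25, 13.8% shared), the interleukin-23 receptor gene Il23r (3.25) and Plxdc2 (3.21), with log2 fold changes in parentheses. Ceacam5 (3.92, 13.8% shared), Vmn2r51 (3.76, 52.6% shared) and Pramef17 (3.29, 73.5% shared) were higher too. The share of a gene's 50-base stretches that also occur in other genes is given as shared where it is above 10%, and such genes are less certain.

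With the same genes left out, the largest fall was that of Malat1, a nuclear long non-coding RNA. It had 113, 104 and 299 normalised counts in P14 WT, against 3113, 5139 and 4780 in P7 WT (log2 fold change −4.65 ± 0.55 (SE), adjusted p = 1.01e-04). Genes with overlapping groups were left out of this ranking, and P14 WT replicate 3 was the highest of its group. Of the 12 largest falls, 8 were RNAs of the mitochondrial genome, which are described with the other mitochondrial genes. The remaining ones were March11 (−3.02), a ubiquitin ligase gene, Myo5c (−2.95), an unconventional myosin gene, and Zbp1, a sensor of Z-form nucleic acid, which had 34.4, 19.5 and 33.2 normalised counts in P14 WT, against 239, 208 and 210.5 in P7 WT (log2 fold change −2.90).

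The most abundant oocyte RNAs changed by less than 2-fold. Padi6, which encodes a protein of the cytoplasmic lattices, led both ages with 609500, 646700 and 537700 normalised counts in P14 WT, against 923600, 884100 and 908100 in P7 WT (log2 fold change −0.60 ± 0.11 (SE), adjusted p = 5.08e-04). All P14 WT libraries were below all P7 WT libraries. Nlrp14, of the same list, was second in P14 WT and had 529100, 671600 and 494400 normalised counts in P14 WT, against 486000, 352200 and 261200 in P7 WT (log2 fold change 0.63 ± 0.19 (SE), adjusted p = 0.0127), with every P14 WT library above every P7 WT library. The 10 most abundant genes held 6.91 ± 0.215% of counts in P14 WT and 8.52 ± 0.298% in P7 WT (SD, n = 3 each), with an exact permutation p of 0.1, the smallest that 3 against 3 libraries allow. The gene for growth differentiation factor 9, Gdf9, and the zona gene Zp1 did not pass (0.18 and −0.28), nor did Dnmt1, Zbed3 and Ldhb (0.17, −0.05 and −0.48, with 27.0% of the Ldhb stretches shared).

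In the egg coat and egg surface list the share of higher members was close to that of all genes. Of 11 tested members, 3 were higher (27.3%, against 26.8% of all tested genes), 4 lower (36.4%, against 23.4%) and 4 did not pass, and the median log2 fold change was −0.28, against 0.03 over all tested genes. The members higher and lower numbered 1 and 4 without P14 WT replicate 1, 1 and 5 without P14 WT replicate 2, 1 and 5 without P7 WT replicate 2 and 1 and 4 without P7 WT replicate 3. Zp3, the zona protein that is made during growth, had 201900, 234000 and 184300 normalised counts in P14 WT, against 326600, 307900 and 337300 in P7 WT (log2 fold change −0.65 ± 0.14 (SE), adjusted p = 0.00152), and the groups did not overlap. Zp2 was lower by less (−0.45), as were the tetraspanin genes Cd9 (−0.82, 15.5% shared) and Cd81 (−1.06), of which Cd9 is needed for fusion with sperm. The sperm receptor gene Izumo1r (0.32) and the ovastacin protease gene Astl (0.32) were higher. So was Zp3r (1.001), which was kept in this list but is named for a receptor of Zp3 and not for an egg protein. Of these 3 higher members 1 passed with scaling by library size alone.

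Among genes for secreted factors, those called went both ways. Of 14 tested members 4 were higher (28.6%, against 26.8% of all tested genes), 5 lower (35.7%, against 23.4%) and 5 did not pass (median −0.00). Bmp15, the oocyte growth factor that acts on granulosa cells, had 152600, 171300 and 155900 normalised counts in P14 WT, against 112700, 90040 and 85990 in P7 WT (log2 fold change 0.73 ± 0.11 (SE), adjusted p = 9.66e-05). The P14 WT libraries were close together and all above P7 WT. Ntf3 (0.89), Bmp6 (0.68) and the plasminogen activator gene Plat (0.39) were also higher. Nppc (−2.27), which encodes C-type natriuretic peptide, Igf1 (−2.19), Oosp1 (−0.85) and Fgf8 (−0.75) were lower. Nppc and Igf1 are known as granulosa cell genes.

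The subcortical maternal complex and cytoplasmic lattices are oocyte stores that the early embryo needs. Of 11 tested members 4 were higher (36.4%, against 26.8% of all tested genes), 3 lower (27.3%, against 23.4%) and 4 did not pass (median −0.04). Higher and lower members numbered 2 and 3 without P14 WT replicate 2 and 2 and 3 without P7 WT replicate 3. The higher ones were the NLR genes Nlrp9b (1.42), Nlrp2 (0.85), Nlrp14 (0.63) and Nlrp5 (0.57). Ooep, a KH-domain subunit, had 33500, 28260 and 37480 normalised counts in P14 WT, against 57990, 92600 and 89310 in P7 WT (log2 fold change −1.27 ± 0.16 (SE), adjusted p = 2.56e-05), without overlap. Khdc3 (−0.66, 42.8% shared) was lower too, and Tle6 (−0.15) did not pass.

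Oocyte gene clusters with many copies were more often higher than lower. Among maternal homeobox, oogenesin and related clusters, 28 members were tested, of which 13 were higher (46.4%, against 26.8% of all tested genes), 7 lower (25%, against 23.4%) and 8 did not pass (median 0.44). Oog4, an oogenesin, had 57110, 73050 and 47170 normalised counts in P14 WT, against 23530, 14610 and 15440 in P7 WT (log2 fold change 1.73 ± 0.20 (SE), adjusted p = 1.56e-05). P7 WT replicate 1 was the highest of its group and still below every P14 WT library. Bpifc (3.85), which was kept in this list without belonging to these clusters, was higher. Tcl1b5 (1.09, 20.8% shared) and Obox2 (1.03, 63% shared) were higher too, and Khdc1c (−2.004, 43.1% shared), Khdc1a (−0.93, 43.5% shared), Omt2b (−0.92, 13.2% shared) and Omt2a (−0.81, 29.5% shared) were lower. In the oocyte F-box WD40 cluster, 14 members were tested, and 9 were higher (64.3%, against 26.8% of all tested genes) and 5 did not pass, with Fbxw19 (0.74) the largest. Members called higher and lower came to 5 and 0 without P14 WT replicate 2. Scaling by library size alone left 4 higher, and no alternative made any member lower.

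Other abundant genes with large gains in counts were Slc45a3 (0.96, 10.6% shared), the laminin gene Lamb1 (1.29), Spin1 (0.75), which encodes a chromatin reader, and D10Wsu102e (0.60, 10.7% shared). The oocyte linker histone gene H1foo (−0.52) and Dppa3, which protects maternal methylation in the zygote, were among the abundant genes with large losses. Dppa3 had 30500, 35200 and 27200 normalised counts in P14 WT, against 59620, 78030 and 91230 in P7 WT (log2 fold change −1.30 ± 0.18 (SE), adjusted p = 5.96e-05), without overlap, and 17.7% of its stretches were shared.

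**Figure D2:**
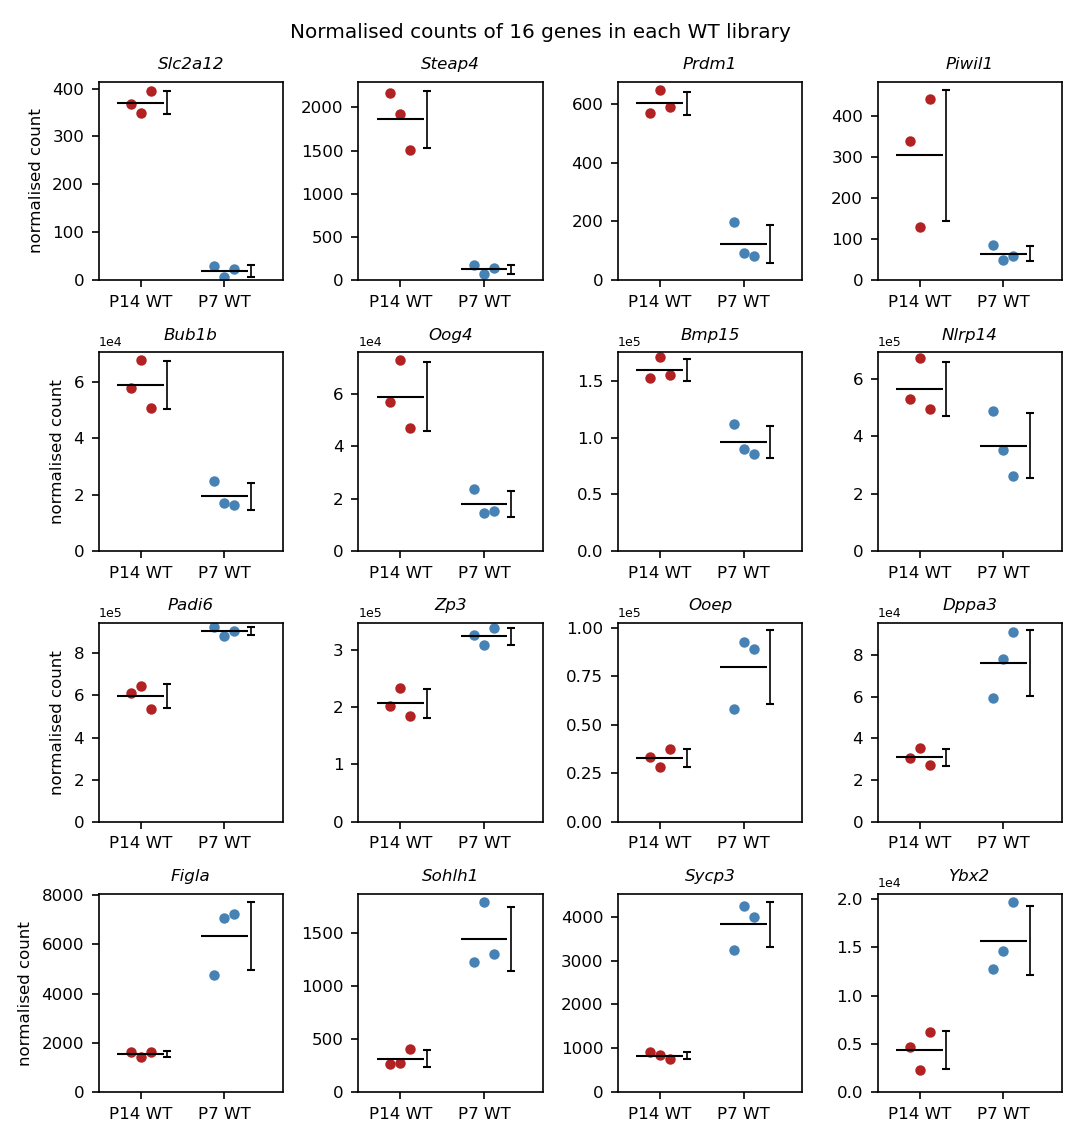
Normalised counts of genes named in the text in each of the 3 P14 WT libraries (left) and 3 P7 WT libraries (right), 1 panel a gene on its own axis. Points are libraries, horizontal bars are group means and error bars are SDs (n = 3): in each panel the P14 WT points lie on one side of the P7 WT points. These genes were called from the same libraries, so this separation follows from the selection.

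Transcription factors of early oocyte development were mostly lower in P14 WT. Of 16 tested members 5 were higher (31.2%, against 26.8% of all tested genes), 10 lower (62.5%, against 23.4%) and 1 did not pass (median −0.45). Figla, which drives the zona genes and follicle formation, had 1641, 1419 and 1618 normalised counts in P14 WT, against 4743, 7052 and 7223 in P7 WT (log2 fold change −2.02 ± 0.18 (SE), adjusted p = 2.30e-06). Sohlh1, a germ cell factor of the same class, had 264, 278 and 412 normalised counts in P14 WT, against 1231, 1791 and 1305 in P7 WT (log2 fold change −2.18 ± 0.22 (SE), adjusted p = 7.20e-06). P7 WT replicate 1 was the lowest of its group for both genes, and each P14 WT library was less than 0.5 times any P7 WT library. Dmrt1 (−1.78), Sohlh2 (−0.45), Lhx8 (−0.45), Foxo3 (−0.61) and Pou5f1 (−0.56, 15.9% shared) were lower by smaller folds or from lower counts. Zfp36l2, an RNA-binding protein gene kept in this list, was also lower (−1.07).

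Prdm1 went the other way. This transcriptional repressor, which acts in germ cell specification, had 570.0, 648 and 590.3 normalised counts in P14 WT, against 197, 90.9 and 81.8 in P7 WT (log2 fold change 2.29 ± 0.32 (SE), adjusted p = 7.40e-05), and P14 WT was more than 2-fold above every P7 WT library. Taf4b (0.95), Gata4 (0.80), Bnc1 (0.62) and Nobox (0.47), a homeobox activator of oocyte genes, were also higher.

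Genes of the meiotic prophase had a larger share of lower members than all genes. The synaptonemal complex pairs homologous chromosomes and is taken apart before the oocyte grows. Of 42 tested members 8 were higher (19.1%, against 26.8% of all tested genes), 18 lower (42.9%, against 23.4%) and 16 did not pass (median −0.30). Sycp1, the transverse filament, had 775, 657 and 694 normalised counts in P14 WT, against 2298, 3489 and 2837 in P7 WT (log2 fold change −2.02 ± 0.16 (SE), adjusted p = 1.02e-06). Sycp3, of the axial element, had 911, 855 and 752 normalised counts in P14 WT, against 3247, 4233 and 3995 in P7 WT (log2 fold change −2.19 ± 0.19 (SE), adjusted p = 1.46e-06), but 50.4% of its stretches occur in other genes and it overlaps Chpt1 on the opposite strand. The meiotic cohesin gene Smc1b had 1726, 2001 and 1796 normalised counts in P14 WT, against 5172, 7070 and 5621 in P7 WT (log2 fold change −1.69 ± 0.14 (SE), adjusted p = 1.06e-06). None of these 3 genes had overlapping groups. Syce3 (−2.38), Tex12 (−1.40) and Hormad1 (−1.38, 27.2% shared), of the same structures, were lower too, as was Mnd1 (−1.71, 40.8% shared).

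Other members of this list were called in both directions. Meioc (1.91), Msh4 (0.999), the recombinase gene Dmc1 (0.95), the cohesin gene Stag3 (0.71) and the crossover gene Mlh3 (0.49) were higher. Mei1 (−1.28), Mei4 (−1.07) and Ankrd31 (−1.42), which act in forming double-strand breaks, were lower, and Spo11, the enzyme that makes the breaks, did not pass (0.10).

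The germ cell RNA and piRNA pathway silences transposons. Of 24 tested members 9 were higher (37.5%, against 26.8% of all tested genes), 3 lower (12.5%, against 23.4%) and 12 did not pass (median 0.29). Piwil1, a PIWI protein gene, had 339, 129.7 and 442 normalised counts in P14 WT, against 84.4, 49.0 and 59.3 in P7 WT (log2 fold change 2.25 ± 0.39 (SE), adjusted p = 4.02e-04), with P14 WT replicate 2 well below the other libraries of its group and still above all P7 WT libraries. The Tudor domain genes Tdrd7 (0.94), Tdrd6 (0.76), Tdrd9 (0.71) and Tdrd1 (0.65) were higher with Nanos1 (0.91), and Gtsf1 (−1.001), Mael (−0.48) and Tdrkh (−0.45, 39.1% shared) were lower. The helicase gene Ddx4 and the translation regulator gene Dazl did not pass (−0.03 and −0.08).

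Genes for storing maternal mRNA were called as often higher as lower. Of 31 tested members 6 were higher (19.4%, against 26.8% of all tested genes), 6 lower (19.4%, against 23.4%) and 19 did not pass (median −0.10). Higher and lower members numbered 5 and 9 with scaling by library size alone and 6 and 9 with upper-quartile factors. Ybx2, the Y-box protein that coats stored mRNA, had 4657, 2350 and 6262 normalised counts in P14 WT, against 12800, 14560 and 19660 in P7 WT (log2 fold change −1.82 ± 0.31 (SE), adjusted p = 5.79e-04). P14 WT replicate 2 was the lowest and the groups did not overlap. Ybx1 (−1.03, 25.1% shared), Pum2 (−0.97), Ddx6 (−0.89) and Zar1 (−0.57, 30.4% shared) were lower as well. Papolg (1.14), Tent5b (0.92) and Tent5c (0.81), which add adenosine tails, were higher.

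Of 41 tested genes of mRNA decay 15 were higher (36.6%, against 26.8% of all tested genes), 8 lower (19.5%, against 23.4%) and 18 did not pass (median 0.10). Cnot1 (1.34), the scaffold of the CCR4-NOT deadenylase, and the decapping genes Edc4 (1.03) and Dcp1a (0.99) were among the highest, and Tut4 (−1.07), Lsm1 (−0.82) and Dcp1b (−0.67) were lower. Btg4, which licenses maternal mRNA decay at meiotic maturation, did not pass (−0.33). With an offset for transcript length, added after the data were seen, 9 members were higher.

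Oocytes gain DNA methylation while growing. Of 18 tested genes of DNA methylation 6 were higher (33.3%, against 26.8% of all tested genes), 2 lower (11.1%, against 23.4%) and 10 did not pass (median 0.20). Counts of higher and lower members were 6 and 1 without P14 WT replicate 1. Dnmt3l, the cofactor that de novo methylation of imprints needs, had 8060, 8287 and 6503 normalised counts in P14 WT, against 3627, 2765 and 3491 in P7 WT (log2 fold change 1.21 ± 0.12 (SE), adjusted p = 4.80e-06), and its exons overlap Aire on the opposite strand. The methyltransferase genes Dnmt3a (0.61) and Dnmt3b (0.94, 11.5% shared) and Setdb1 (1.04), which silences endogenous retroviruses, were higher, and Tdg (−1.24, 66.3% shared) was lower. Scaling by library size alone made 5 members lower.

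Histone methylation enzymes showed no shared direction. Of 33 tested members 7 were higher (21.2%, against 26.8% of all tested genes), 7 lower (21.2%, against 23.4%) and 19 did not pass. The members higher and lower numbered 7 and 3 without P14 WT replicate 1, 10 and 4 without P14 WT replicate 2 and 7 and 3 without P7 WT replicate 3. Ezh1 (1.26), Kdm6a (1.17), Kdm4d (1.15, 11.0% shared) and Kdm2b (1.03, 23.8% shared) were higher, and the H3K4 methyltransferase genes Setd1b (−1.83), Kmt2a (−1.54) and Setd1a (−1.11, 54.0% shared) with the demethylase gene Kdm6b (−1.06) were lower.

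Chromatin proteins themselves were mostly lower. Of 25 tested members 2 were higher (8%, against 26.8% of all tested genes), 16 lower (64%, against 23.4%) and 7 did not pass (median −0.52). H2afy, which encodes macroH2A1, had 875, 807 and 849.6 normalised counts in P14 WT, against 1890, 2212 and 2102 in P7 WT (log2 fold change −1.29 ± 0.12 (SE), adjusted p = 1.98e-06), without overlap. The nucleoplasmin gene Npm2 (−1.001), whose exons overlap Xpo7, the histone chaperone gene Nap1l1 (−1.04, 25.6% shared) and the H2A.Z gene H2afz (−0.99, 69.6% shared) were lower. Ubn1 (0.79) and Ctcf (0.49) were the 2 higher members.

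Genes that hold meiosis at prophase, and those that later restart it, had more higher than lower members. Of 38 tested members 16 were higher (42.1%, against 26.8% of all tested genes), 4 lower (10.5%, against 23.4%) and 18 did not pass (median 0.22). Gpr3, the receptor that keeps cyclic AMP high, had 5111, 4901 and 3920 normalised counts in P14 WT, against 2425, 2441 and 2100 in P7 WT (log2 fold change 1.002 ± 0.13 (SE), adjusted p = 2.78e-05), and it overlaps Cd164l2 on the opposite strand. Pde3a (0.72), which breaks cyclic AMP down, was higher too, as were Wee2 (0.74), which holds CDK1 inactive, the cyclin genes Ccnb3 (0.92) and Ccnb1 (0.89, 42.1% shared), the kinase gene Mastl (0.83) and the anaphase activator gene Cdc20 (0.74, 11.6% shared). Cks2 (−1.31, 29.7% shared), Prkar2b (−0.82), Gnas (−0.71) and Cdk1 (−0.39) were lower, and the kinase gene Mos did not pass (0.11).

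For the spindle and kinetochore, 42 members were tested, and 16 were higher (38.1%, against 26.8% of all tested genes), 9 lower (21.4%, against 23.4%) and 17 did not pass. Bub1b, the checkpoint kinase BubR1, had 57930, 67890 and 50900 normalised counts in P14 WT, against 24830, 17100 and 16300 in P7 WT (log2 fold change 1.60 ± 0.16 (SE), adjusted p = 3.71e-06), and P7 WT replicate 1 was the highest of its group, below all P14 WT libraries. Ckap5 (1.07), Kif20a (0.89, 31.2% shared), the separase gene Espl1 (0.87) and Kif11 (0.80) were higher. Spc24 (−1.24), Kifc5b (−0.88, 42.1% shared), Haus1 (−0.70) and the securin gene Pttg1 (−0.62) were lower. Library-size scaling alone made 15 lower.

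There were 73 symbol families with at least 20 tested protein-coding members. The largest shares of higher members were in the Gpr, Nup, Usp, Tbc and Fbxw families, which were picked for those shares. Of all tested genes, 26.8% were higher and 23.4% lower by adjusted p. Of 20 nucleoporin genes (Nup), which build the nuclear pore, 15 were higher and 1 lower (median log2 fold change 0.59), with Nup205 at 1.24, Nup160 at 1.217 and Nup214 at 1.15. The summed nucleoporin counts were 176600, 189900 and 179300 in P14 WT, against 128200, 101500 and 95200 in P7 WT. Of 52 Usp symbols, most of which encode deubiquitinases, 30 were higher and 1 lower (0.56), with Usp38 (1.43, 24.4% shared) and Usp13 (1.86) as examples. Of 33 Gpr symbols, most of them for receptors, 20 were higher and 2 lower (0.58), and of 26 Tbc genes, many of which regulate Rab GTPases, 15 and 2 (0.38). The Fbxw family overlaps the F-box list given above, and of its 23 members 13 were higher and 1 lower. Without P14 WT replicate 2 the higher members were 8, and with library-size scaling alone 7.

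Families lower in P14 WT belonged to the cytosolic ribosome, the mitochondrial ribosome and cytochrome c oxidase. Of 48 Rpl genes, for the large cytosolic subunit, 44 were lower and the rest did not pass (median −1.28), where 23.4% of tested genes were lower. Their summed counts were 18590, 18170 and 17170 in P14 WT, against 25180, 33250 and 34350 in P7 WT, with replicate 1 the lowest of P7 WT. The Rps symbols include 10 genes of S6 kinases, of which 2 were higher and 2 lower, while all 32 others were lower (median −1.61). Of 48 Mrpl genes, for the large mitochondrial subunit, 40 were lower and 1 higher (−0.63), and of 29 Mrps genes, for the small one, 21 were lower and the rest did not pass (−0.61). Of 24 Cox symbols, 19 were lower and 2 higher (−1.27).

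Single members show the sizes. Rpl38 (−2.33, 40.2% shared) and Rpl37a (−2.10, 40.1% shared) had 35.2 and 91.6 normalised counts on average in P14 WT, against 178 and 395 in P7 WT. Rps20 had 263, 193 and 250.0 normalised counts in P14 WT, against 725, 1313 and 1169 in P7 WT (log2 fold change −2.18 ± 0.21 (SE), adjusted p = 2.79e-06), without overlap. The nuclear-encoded oxidase gene Cox6c had 1364, 1310 and 1749 normalised counts in P14 WT, against 3765, 5811 and 5869 in P7 WT (log2 fold change −1.80 ± 0.18 (SE), adjusted p = 4.38e-06), and Cox4i2 (−2.38), Mrpl52 (−1.85) and Mrps21 (−1.77, 13.7% shared) were lower by over 3-fold. Ribosomal protein genes have many processed pseudogenes, and reads that map to several places were not counted. Of the Rpl genes 13 shared at least 50% of their stretches with other genes. Among members with under 10% shared, 6 of 7 Rpl, 10 of 16 Rps, 31 of 37 Mrpl, 13 of 17 Cox and 15 of 19 Mrps genes were lower. The Rps symbols counted here include genes of S6 kinases.

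**Figure D3:**
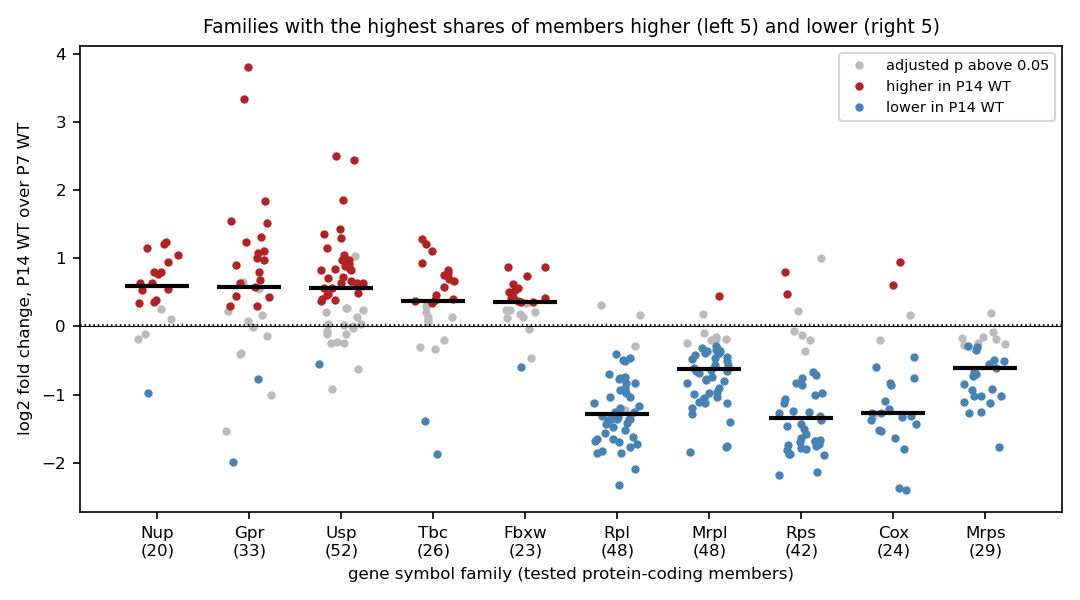
Log2 fold change of P14 WT over P7 WT (vertical axis) of each tested protein-coding member, as 1 point, in the 10 symbol families with the largest shares called, red where higher, blue where lower and grey where the adjusted p was above 0.05. Thick bars are family medians and the dotted line is the median of all genes: the bars lie between 0.36 and 0.59 for the left 5 families and between −1.34 and −0.61 for the right 5.

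RNAs of the mitochondrial genome were among the RNAs with the largest falls. The mRNAs of this genome, without the ribosomal and transfer RNAs, took 0.0369%, 0.0244% and 0.0620% of counts in P14 WT, against 0.294%, 0.753% and 0.606% in P7 WT. The means were 0.0411 ± 0.0192% in P14 WT and 0.551 ± 0.234% in P7 WT (SD, n = 3 each), and the exact permutation p was 0.1, the smallest possible. P7 WT replicate 1 held about 0.4 to 0.5 times the share of the other P7 WT libraries and over 4 times that of every P14 WT library.

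All 7 tested mitochondrial mRNAs were lower, with log2 fold changes between −4.51 and −3.39. mt-Cytb, for cytochrome b, had 7865, 5379 and 12360 normalised counts in P14 WT, against 55960, 129500 and 107900 in P7 WT (log2 fold change −3.51 ± 0.35 (SE), adjusted p = 2.56e-05). mt-Co1, for subunit 1 of cytochrome c oxidase, had 1071, 896 and 2259 normalised counts in P14 WT, against 18620, 43240 and 34870 in P7 WT (log2 fold change −4.51 ± 0.49 (SE), adjusted p = 6.09e-05), but 51.1% of its stretches also occur elsewhere in the annotated genes, as do 62.2% of those of mt-Nd4. Of the 13 mRNAs, mt-Co2, mt-Co3, mt-Atp6, mt-Atp8 and mt-Nd4l had 0 counts in all 6 libraries, so the sum leaves them out, and mt-Nd3 had too few to test. The ribosomal RNA mt-Rnr2 was lower as well (−3.62).

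Of 34 tested nuclear genes that copy mitochondrial DNA, express it or shape the organelle 11 were higher (32.4%, against 26.8% of all tested genes), 5 lower (14.7%, against 23.4%) and 18 did not pass (median 0.15). The fusion genes Mfn2 (0.98) and Mfn1 (0.75), the polymerase gene Polg (1.01) and the mitochondrial mRNA stability gene Lrpprc (0.84) were higher, and the fission gene Fis1 (−1.09) and Ssbp1 (−0.88) were lower. Slirp (−1.37, 93.7% shared) was lower too. Tfam, which packages mitochondrial DNA, did not pass (0.15). Library-size scaling alone made 9 lower.

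Genes of energy metabolism had a share of higher members near that of all genes. Of 33 tested genes of lactate, pyruvate and glucose metabolism 9 were higher (27.3%, against 26.8% of all tested genes), 5 lower (15.2%, against 23.4%) and 19 did not pass. Higher and lower members numbered 5 and 5 without P14 WT replicate 1 and 5 and 5 without P7 WT replicate 2. The phosphofructokinase genes Pfkp (1.38) and Pfkl (0.92) and the transporter gene Slc2a1 (0.68) were higher. Ldha, for a lactate dehydrogenase subunit, had 49.4, 89.5 and 67.4 normalised counts in P14 WT, against 225, 301 and 582 in P7 WT (log2 fold change −2.42 ± 0.31 (SE), adjusted p = 2.86e-05), with 16.6% of its stretches shared. The pyruvate carrier gene Mpc2 (−1.19) was lower.

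In cholesterol synthesis, which mouse oocytes leave largely to granulosa cells, 23 genes were tested and 7 were higher (30.4%, against 26.8% of all tested genes), 6 lower (26.1%, against 23.4%) and 10 did not pass. Members called higher and lower came to 5 and 2 without P14 WT replicate 2 and 6 and 2 without P7 WT replicate 3. Idi1 (0.85, 30.5% shared) and Dhcr7 (0.73) were higher. Srebf2 (−0.83), the transcription factor of the pathway, was lower. Of 20 tested amino acid carriers 7 were higher (35%, against 26.8% of all tested genes) and 13 did not pass, with Slc43a1 (2.63), Slc1a4 (1.51) and Slc7a8 (0.94) the highest.

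Oocytes and granulosa cells are joined by adhesion proteins and gap junctions. Of 18 tested genes of this contact 7 were higher (38.9%, against 26.8% of all tested genes), 2 lower (11.1%, against 23.4%) and 9 did not pass (median 0.45). Cdh1, for E-cadherin, had 13720, 14710 and 14600 normalised counts in P14 WT, against 8198, 5052 and 4867 in P7 WT (log2 fold change 1.25 ± 0.17 (SE), adjusted p = 3.87e-05), without overlap. Ctnna1 (0.86), Jam2 (0.78) and Itga6 (0.76) were higher too. Gja4, which encodes the connexin of the oocyte's own gap junctions, did not pass (0.22), and the granulosa connexin gene Gja1 (−0.91) and Gjc1 (−0.52) were lower.

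Kit, PI3K and mTOR signalling sets the start of oocyte growth. Of 26 tested members 9 were higher (34.6%, against 26.8% of all tested genes), 7 lower (26.9%, against 23.4%) and 10 did not pass (median 0.26). Pik3ca (1.19), the kinase subunit, the receptor gene Kit (0.75), Akt1 (0.69) and Pdpk1 (0.67) were higher. The cell cycle inhibitor Cdkn1b had 49.4, 54.0 and 96.5 normalised counts in P14 WT, against 125, 285 and 349.5 in P7 WT (log2 fold change −1.92 ± 0.34 (SE), adjusted p = 3.04e-04). The translation repressor gene Eif4ebp1 (−1.67) and Rheb (−0.76) were lower.

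Of 20 tested genes of calcium stores and egg activation 7 were higher (35%, against 26.8% of all tested genes), 2 lower (10%, against 23.4%) and 11 did not pass. Counts of higher and lower members were 4 and 2 without P14 WT replicate 3 and 4 and 2 without P7 WT replicate 2. The calcium pump genes Atp2b3 (1.34) and Atp2a2 (0.98) and Orai2 (1.09) were higher, Plcb1 (−1.15) and Ppp3ca (−1.07) lower, and Itpr1, the main release channel, did not pass (−0.23). Of 24 tested genes of DNA damage and survival 7 were higher (29.2%, against 26.8% of all tested genes), 7 lower (29.2%, against 23.4%) and 10 did not pass. The members higher and lower numbered 4 and 4 without P14 WT replicate 2 and 4 and 5 without P7 WT replicate 2. Trp73 (1.67), Mdm4 (1.21, 15.5% shared) and Atr (0.76) were higher, the apoptosis genes Bok (−1.77), Bax (−1.39, 13.8% shared) and Pmaip1 (−1.13) and the inhibitor gene Xiap (−1.32) were lower, and Trp63, the guardian of the resting oocyte, did not pass (−0.14).

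For the general transcription machinery, 34 members were tested and 9 were higher (26.5%, against 26.8% of all tested genes), 9 lower (26.5%, against 23.4%) and 16 did not pass. Tbpl2, the oocyte paralogue of TBP, had 2110, 2442 and 1900 normalised counts in P14 WT, against 3090, 3317 and 3027 in P7 WT (log2 fold change −0.55 ± 0.14 (SE), adjusted p = 0.00428), all P14 WT libraries being lower. Tbp did not pass (−0.01, 17.8% shared). Gtf2a2 (−1.26), a TFIIA subunit, Taf10 (−0.96, 49.1% shared) and Polr2e (−0.76) were lower, Polr2b (1.04) and Taf9b (0.66) higher. Early response and heat shock genes, which can mark stress of the cells, had 3 higher and 5 lower of 20 tested. These were 15% and 25%, against 26.8% and 23.4% of all tested genes, so the lower share was near that of all genes. Junb (1.34) was higher and Fos (−1.86) and Myc (−1.46) were lower.

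**Figure D4:**
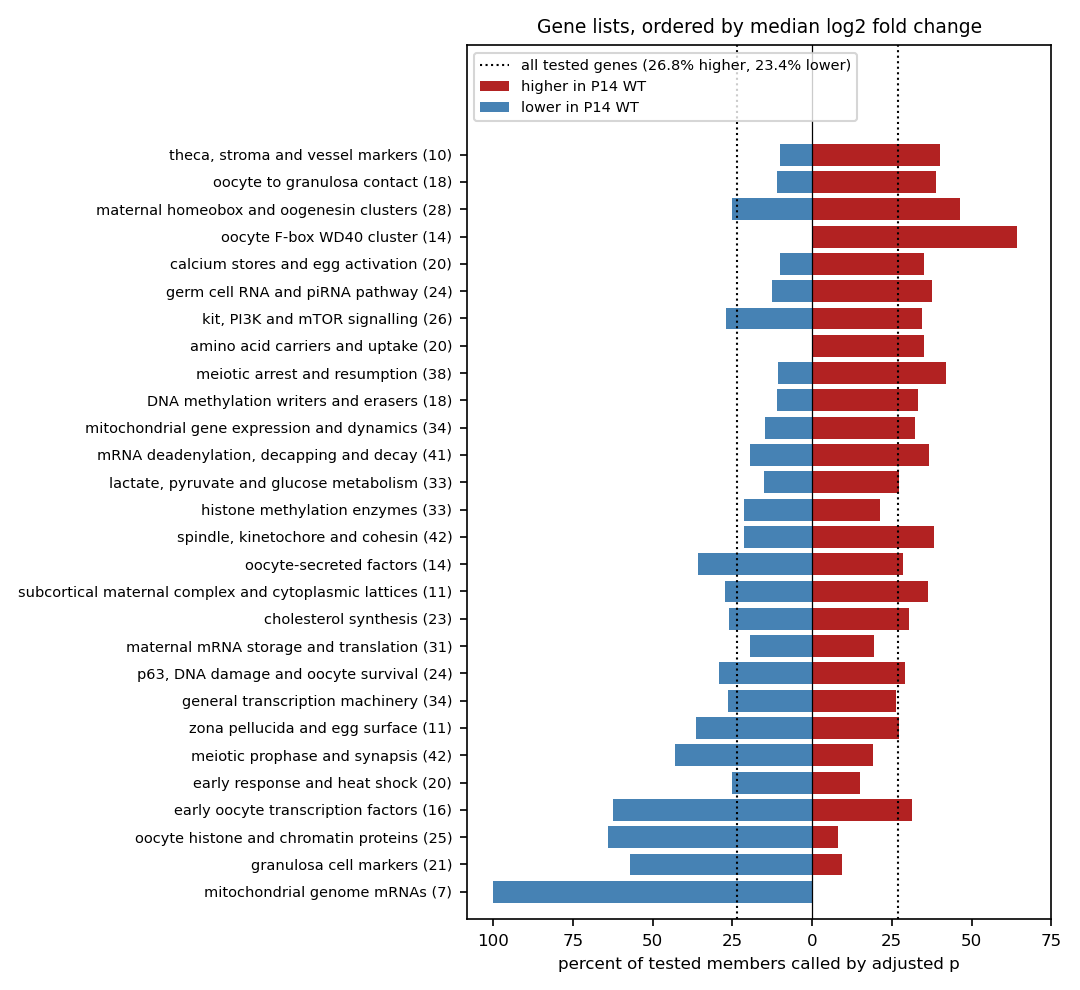
Percent of tested members called higher (red, to the right) and lower (blue, to the left) in P14 WT by adjusted p in each gene list with at least 7 tested members, ordered by median log2 fold change, with the number of tested members. Dotted lines mark the 26.8% and 23.4% of all tested genes: the early transcription factor, chromatin protein, granulosa marker and mitochondrial genome lists run furthest past the lower line.

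Most granulosa markers that were called were lower in P14 WT. Of 21 tested members 2 were higher (9.52%, against 26.8% of all tested genes), 12 lower (57.1%, against 23.4%) and 7 did not pass (median −0.93). Higher and lower members numbered 2 and 6 without P7 WT replicate 3. Inhbb, an activin subunit gene, had 18.2, 11.5 and 16.6 normalised counts in P14 WT, against 146, 157 and 228 in P7 WT (log2 fold change −3.50 ± 0.47 (SE), adjusted p = 4.32e-05). Hsd17b1 (−2.01), Bex4 (−1.69, 49.7% shared), Gatm (−1.65) and Foxl2 (−1.32), the granulosa transcription factor, were lower too. Cyp19a1 (1.85), the aromatase gene, and Esr2 (1.07) were higher, and Amh did not pass (−0.88). The summed level of the list overlapped between the ages, at 5822 to 6247 normalised counts in P14 WT and 5340 to 6595 in P7 WT, and none of its members was at 0 in all 6 libraries. In a bulk library, fewer cells of a type and less RNA per cell cannot be told apart. The part of such cells in the results above was not tested.

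Markers of theca, stroma and vessel cells summed to 6560 to 7826 normalised counts in P14 WT and 2905 to 3495 in P7 WT, with Kdr (1.80), Pecam1 (1.56), Tek (1.11) and Myh11 (1.09) higher and Lhcgr lower (−1.08) of 10 tested. Of the tested members 40% were higher and 10% lower, against 26.8% and 23.4% of all tested genes. The part of such cells in the results was not tested. Of 15 blood and immune markers 3 had enough counts to test and did not pass, and 3 were at 0 in all 6 libraries. Their sums were 718 to 1028 in P14 WT and 961 to 1390.0 in P7 WT.

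Normalised counts say nothing of the RNA held by an oocyte, since each library is scaled to the others. From the labels, the pools held 25.5, 18.1 and 28.1 pg of RNA per oocyte in P14 WT, against 12.5, 23.4 and 14.8 pg in P7 WT. The groups overlapped, with means of 23.9 ± 5.20 pg in P14 WT and 16.9 ± 5.77 pg in P7 WT (SD, n = 3 each), a difference of 6.99 pg and a two-sided exact permutation p of 0.2. The number of molecules of a gene per oocyte was not measured.

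Calls also followed the length of the transcript. Among protein-coding genes with a median transcript under 500 bases, 20.6% were higher and 42.2% lower, and from 3000 to 4000 bases 38.8% were higher and 13.2% lower. The median log2 fold changes of these bins were −0.33 and 0.31 (306 and 1406 genes). The median length was 2096 bases for genes higher by over 2-fold, 1054 for lower genes and 1503 for the rest. Genes under 1000 bases took 36.0% to 36.8% of counts in P14 WT and 38.7% to 41.2% in P7 WT. The cause was not tested.

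**Figure D5:**
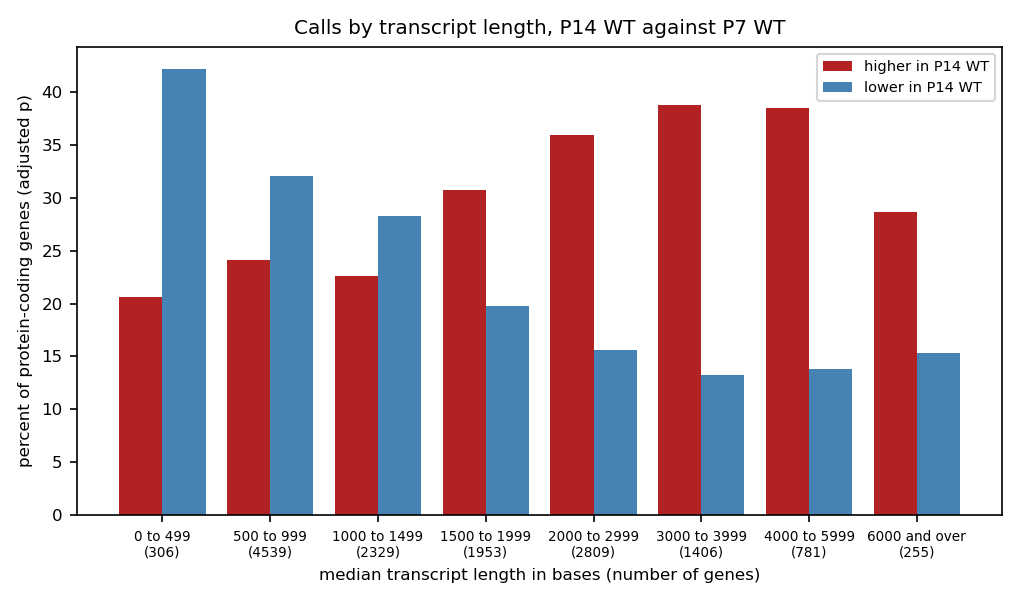
Percent of tested protein-coding genes called higher (red) and lower (blue) in P14 WT by adjusted p, against the median transcript length of the gene in bases, in 8 bins. The lower share falls to 13.2% and the higher share climbs to 38.8% in the bin from 3000 to 4000 bases. In the last bin, from 6000 bases, they are 15.3% and 28.6%.

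The ribosomal and oxidase families hold mostly short genes. Outside the Rpl, Rps, Mrpl, Mrps and Cox families, 4691 protein-coding genes under 1000 bases were tested, of which 24.7% were higher and 30.8% lower, with a median of −0.09. With the length offset, 42 Rpl, 34 Rps, 39 Mrpl, 20 Mrps and 19 Cox genes were lower.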

How the data were processed

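Pooled oocytes gave RNA for SMART-Seq v4 amplification, and single ends of 50 bases were read. According to the submitters' processing notes, bcl2fastq 2.17.1.14 made the reads, which were aligned to mm10 with STAR 2.7.0f and counted by gene with HTSeq 0.9.1 in union mode, keeping unique alignments. The deposited counts are the authors' whole-number counts per gene. The normalised counts, also deposited, are a signal obtained by the authors from those counts and a median-of-ratios factor from DESeq2 1.22.2 under R 3.5.3. Fold changes, standard errors, p-values and test statistics of the authors' own comparisons, and their group values per kb, are also in the table and were not used. The strand setting of the counting is not given in the sources used here.

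Counts were tested with edgeR 4.0.16 under R 4.3.3 (two-sided quasi-likelihood test, TMM scaling and robust dispersions). All 12 libraries were fitted as 4 group means, and P14 WT was set against P7 WT. A gene was called with an adjusted p of at most 0.05 (Benjamini and Hochberg over 17715 genes), and over 2-fold where so stated. Standard errors are of the log2 fold change. Values by library are the normalised counts of replicates 1, 2 and 3. The fit was tested on simulated data. Other settings were library size, DESeq2 or upper-quartile factors, other filters, the WT libraries alone, a replicate block and DESeq2 1.42.0. Each WT library was also left out in turn, but no Tbpl2-/- library was.

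The comparison, the 29 gene lists and the genes named were chosen with earlier results of these data known. Named genes are the 12 largest folds in each direction above 100 normalised counts without overlap, leaving out predicted genes, clones and pseudogenes, the 10 most abundant at each age, the 8 largest differences of counts in each direction, up to 4 called members of each list in each direction with defining members that did not pass, and the 5 symbol families with the highest shares each way. Smc1b, Tex12, Hormad1, Mei1, Mei4, Ankrd31, Mlh3, Nobox, Sohlh2, Lhx8, Foxo3, Pou5f1, Tdrd1, Tdrd9, Zar1, Wee2, Pde3a, Cdc20, Kif11, Mfn1, Foxl2, Tbpl2 and Cox6c and the other single family members were chosen after their values were seen. Lists got no test of their own, and some of their members are not reported here. Of 246 genes named, 54 have exons that overlap a gene on the opposite strand. The labels call the pools biological replicates but not which animals they came from, so p-values measure the spread between pools. Figures were made with Python 3.11.15 and matplotlib 3.10.9.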

Additional observations from a re-analysis of the deposited data

Results flagged for a closer look

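The change with age was also measured in Tbpl2-/- oocytes, and the difference between the 2 changes was tested in the same edgeR fit as the interaction of age and genotype. It passed for 4954 of the tested genes (28%), and for 142 of the 246 genes described here. Most of the described genes were chosen for their change in WT, which is part of the difference tested, so nothing is read from their share. Values are given below only for described genes whose difference passed, so genes left out are not shown to differ between the genotypes. They are the log2 change with age in WT minus that in Tbpl2-/- oocytes. A negative one means that the change in WT lay below that in Tbpl2-/-. These differences rest on 3 libraries a group, and no cause was tested.

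Among genes with large increases in WT, the difference passed for Steap4 (2.78), Plxdc2 (2.97), Mmp24 (2.45), Tnfrsf21 (1.63), Tmem132b (1.48) and Tmem51 (1.24). Slc2a12, which had the largest increase, Ceacam5, Vmn2r51, Rbm20, Pramef17 and Il23r were not among those that passed. Genes with large falls that passed were March11 (−5.24), Malat1 (−2.85), mt-Co1 (−2.69), mt-Rnr2 (−2.37), Myo5c (−2.27), mt-Nd4 (−1.90), mt-Cytb (−1.87) and Zbp1 (−1.17). March11 is the largest: its change was −3.02 in WT and 2.22 in Tbpl2-/- oocytes.

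Oocyte genes for egg proteins, secreted factors and stored complexes had positive differences for Nlrp5 (1.28), Ntf3 (1.14), Nlrp14 (1.13), Lamb1 (1.01) and Bmp6 (0.47), and negative ones for Khdc1c (−3.17), Oosp1 (−1.69), Khdc1a (−1.48), Dppa3 (−1.34), Omt2b (−1.26), Ooep (−1.23), Fgf8 (−1.16), Omt2a (−1.13), H1foo (−0.91), Izumo1r (−0.79) and Cd9 (−0.56). Khdc1c changed by −2.004 in WT and 1.17 in Tbpl2-/- oocytes.

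For early transcription factors the differences were positive in Taf4b (1.35), Sohlh2 (1.29) and Nobox (0.58) and negative in Zfp36l2 (−1.51), Sohlh1 (−1.35), Foxo3 (−1.30), Figla (−1.16) and Gata4 (−0.89). Meiotic prophase genes had Stag3 (2.05), Dmc1 (1.54), Hormad1 (1.54), Msh4 (0.78) and Mlh3 (0.71), against Mnd1 (−0.99) and Tex12 (−0.98). Hormad1 was lower with age in both genotypes, with log2 changes of −1.38 in WT and −2.92 in Tbpl2-/- oocytes. In the piRNA list the differences were Tdrd9 (2.15), Piwil1 (1.58), Tdrd1 (1.15), Tdrd7 (1.02), Mael (0.66), Dazl (0.63), Nanos1 (0.58), Ddx4 (0.53) and Gtsf1 (−0.68).

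RNA storage and decay genes had Cnot1 (2.04), Edc4 (0.82) and Papolg (0.57) on the positive side and Ybx2 (−1.55), Btg4 (−1.11), Pum2 (−1.05), Zar1 (−1.03), Lsm1 (−0.89) and Ybx1 (−0.63) on the negative side. DNA and histone methylation genes had Ezh1 (1.19), Dnmt3b (0.79), Setdb1 (0.75), Dnmt3a (0.58), Kdm6b (−1.83) and Setd1a (−1.70), and chromatin protein genes H2afz (−1.24) and Npm2 (−0.65).

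Genes of meiotic arrest, resumption and the spindle had Ccnb3 (1.62), Espl1 (1.001), Ckap5 (0.999), Bub1b (0.88), Kif20a (0.82), Gpr3 (0.74), Mastl (0.67), Prkar2b (0.61), Wee2 (0.57) and Ccnb1 (0.56), and on the other side Cks2 (−1.57), Pttg1 (−0.89) and Spc24 (−0.83). The family members named had Nup160 (1.30), Nup205 (1.29), Nup214 (1.216), Usp38 (1.005), Rpl38 (−2.09), Mrpl52 (−1.87), Rpl37a (−1.55), Mrps21 (−1.55), Cox4i2 (−1.48), Rps20 (−1.14) and Cox6c (−1.13).

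Mitochondrial upkeep genes had Mfn2 (1.37), Lrpprc (1.24), Polg (1.07), Mfn1 (0.80), Tfam (0.42) and Slirp (−1.53). In metabolism and transport the differences were Slc7a8 (1.48), Pfkl (0.84), Dhcr7 (0.82), Slc2a1 (0.51), Pfkp (−2.12) and Ldha (−1.61). Pfkp changed by 1.38 in WT and 3.49 in Tbpl2-/- oocytes.

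Contact and calcium genes had Atp2b3 (1.21), Atp2a2 (0.95), Itga6 (0.76), Jam2 (−1.84), Gja1 (−1.29), Plcb1 (−0.65) and Gjc1 (−0.60), and genes of growth signalling Kit (1.03), Pik3ca (0.88), Akt1 (0.46), Cdkn1b (−1.50), Eif4ebp1 (−1.02) and Rheb (−0.70). For survival and damage genes the values were Mdm4 (1.54), Atr (1.31), Bok (−2.60), Pmaip1 (−2.33) and Xiap (−1.15), for transcription genes Polr2b (1.102), Gtf2a2 (−1.11), Tbpl1 (−0.89) and Taf10 (−0.77), and for early response genes Junb (1.17), Myc (−3.40) and Fos (−1.73).

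Markers of other ovarian cells differed as well. Granulosa markers had Inhbb (−3.38), Amh (−2.81), Foxl2 (−2.30), Hsd17b1 (−2.14) and Gatm (−1.90), and theca and vessel markers Myh11 (1.46), Tek (1.46) and Lhcgr (−2.11). The summed granulosa markers overlapped between P14 WT and P7 WT, while of 21 tested members 12 were lower in P14 WT and 2 higher. These were 57.1% and 9.52%, against 23.4% and 26.8% of all tested genes. The part of granulosa cells in the differences above was not tested. Of the genes near absent at P7, the differences were Gm13053 (2.74) and 1700019D03Rik (3.11).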

How the results depend on the processing

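Over the 17 alternative settings, genes higher in P14 WT by over 2-fold numbered 668 to 2150 and lower genes 1225 to 2562, both beside 1654 and 2021. Requiring a mean of at least 100 normalised counts over all 12 libraries left 11548 genes tested, 668 higher and 1225 lower, and moved the median by −0.13. In the main fit, 937 higher and 922 lower calls had a mean above 100 over the 6 WT libraries, which is another mean than that of the filter. The cause of the shift was not tested. By adjusted p alone, 3279 to 5118 were higher and 3459 to 5168 lower. Leaving out 1 WT library in turn gave 1455 to 2150 higher and 1744 to 2358 lower by over 2-fold. The fewest were found without P7 WT replicate 3 and the most without P7 WT replicate 1. Library-size scaling alone moved the share of higher genes among the calls by adjusted p to 42.2%, and upper-quartile factors to 44.9%. With the replicate number as a block 1697 genes were higher and 1962 lower by over 2-fold, and the numbers were not taken as a pairing, since the deviations of same-number libraries of the 2 ages correlated at −0.0262, −0.0391 and 0.0196. DESeq2's Wald test called 1697 higher and 2181 lower. The offset for length gave 1514 and 2027 and that for length and GC content 1696 and 1751, and both were chosen after seeing the data.

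The RNA per oocyte difference ran from 4.79 to 10.2 pg when 1 pool was left out, and the mitochondrial share from −0.638 to −0.409 percentage points. Among the genes described, Dazl alone reversed, to 0.29 with the length and GC offset, beside −0.08, and it did not pass with TMM factors. The cause was not tested. Among described genes that a setting tested, at most 21 changed side of the threshold under any one setting. Genes that a filter left out are not in this count. With a mean of at least 100 normalised counts required, 201 of 246 kept their call, 4 were weaker, 3 were stronger and the rest were not tested. Counts of 3 libraries a group limit what can be called, and amplified reads without molecular identifiers are not independent molecules.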

Other observations

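Classes of gene outside the protein-coding ones had different shares of calls. Of 344 unverified transcripts (TEC in the annotation) 16 were higher in P14 WT by over 2-fold and 105 lower (30.5%), with a median log2 fold change of −0.78. Antisense genes had 40 higher and 110 lower of 627 (17.5%), and sense-intronic genes 4 higher and 14 lower of 45. Long intergenic non-coding RNAs were nearer balance, with 136 higher and 151 lower of 1093. Processed pseudogenes went the other way, with 83 higher (16.1%) and 56 lower of 516. All of these read against 9.34% higher and 11.4% lower among all tested genes. Transcripts of the first classes lie within or beside other genes. Whether the counting used strand was not stated, so reads of such overlaps could not be assigned to either gene.

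Few genes were near absent at one age and well detected at the other. With a mean above 100 normalised counts in P14 WT and under 10 in P7 WT there were 4: 1700019D03Rik, 4930522H14Rik, Gm13053 and the pseudogene Magea7-ps. 1700019D03Rik had 209, 147 and 188 normalised counts in P14 WT, against 10.1, 2.04 and 6.13 in P7 WT, with 32.3% of its stretches shared. In the other direction there were 2, Gm10801 and A2m. Gm10801 had 9.66, 5.74 and 3.11 normalised counts in P14 WT, against 206, 297 and 797 in P7 WT, with 17.1% of its stretches shared. A2m, which encodes alpha-2-macroglobulin, had 0 in all 3 P14 WT libraries, against 366, 1.02 and 0 in P7 WT, so its level rested on P7 WT replicate 1, the library that stood apart. These genes were chosen after their values were seen.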
